A study of Mus musculus with 6 samples.

Results

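The lipid droplet and triglyceride synthesis genes described here are 10 mouse genes, the perilipins Plin2, Plin3, Plin4 and Plin5, the Cide genes Cideb and Cidec, the acyltransferases Gpam, Dgat1 and Dgat2, and the lipase Pnpla2. They were chosen by symbol from a table of 29981 gene rows, and each of the 10 had a row of its own. Messenger RNA had been sequenced from livers of C57BL/6 mice with a hepatocyte-specific deletion of the cholesterol and phospholipid exporter Abca1, made with a Cre recombinase under the Albumin promoter (HSKO, n = 3 samples), and from floxed controls, labelled wildtype (WT, n = 3 samples). The Albumin promoter is active in hepatocytes and in the fetal hepatoblasts from which bile duct cells also arise. All mice went without food between 9 am and 1 pm before the livers were taken, while the labels used here state no age, sex or diet. The labels do not say whether each sample came from a separate animal, and p-values therefore measure the spread between these samples alone, which may be technical.

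Hepatocytes store surplus fatty acids as triglyceride in lipid droplets, which consist of a neutral lipid core under a phospholipid layer studded with proteins. Triglyceride is built on a glycerol backbone by acyltransferases, of which Gpam acts at the first step and Dgat1 and Dgat2 at the last. Perilipins coat the droplet and govern the access of lipases such as Pnpla2, the adipose triglyceride lipase, while Cide proteins act in droplet growth and fusion and, for Cideb in liver, in the lipidation of very-low-density lipoproteins.

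Of the 10 genes, Plin2 was lower in HSKO livers and Gpam, at the first step of triglyceride synthesis, showed the other separation between groups, from very few reads. Cideb, Dgat2 and Pnpla2 had overlapping groups and did not pass the test. Plin3, Plin4, Plin5, Cidec and Dgat1 had overlapping groups and so few reads that differences of moderate size were not excluded. A level below is the deposited value, a read number that the authors had divided by each library's size factor. Fold changes are the mean log2(value + 1) of HSKO minus that of WT, a scale that understates changes of low genes. The HSKO and WT values were fully separated for 2 of the 10 genes, and for 21.8% of all 13807 rows above 0 in some library. Among the 4 genes that passed the filter on low values, 1 was fully separated, as were 51.5% of the 2750 rows that passed it.

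The promoters of Plin2 and Gpam, the 2 genes whose groups did not overlap, are shown beside those of Plin3 and Plin5. The last 2 are perilipin genes with few reads, whose groups overlapped. Gpam and Plin5 each have another annotated start whose window is not shown, and each of those windows held AGGTCA and GGGCGG. The sequences are RefSeq's, on the GRCm38.p6 build (mm10), and run 5′ to 3′ on the gene's strand from 250 bases before the annotated first transcribed base for 260 bases. Capitals mark the motifs CACGTG (an E-box), AGGTCA (a nuclear receptor core motif), CCAAT and GGGCGG, each searched on both strands. The search ran past the printed bases, to 50 after the start. There it also found GGGCGG in Plin2 from position 14 to 19 and in Plin5 from 11 to 16, with the first transcribed base as 0.
Plin2, chr4:86670050-86670309, minus strand: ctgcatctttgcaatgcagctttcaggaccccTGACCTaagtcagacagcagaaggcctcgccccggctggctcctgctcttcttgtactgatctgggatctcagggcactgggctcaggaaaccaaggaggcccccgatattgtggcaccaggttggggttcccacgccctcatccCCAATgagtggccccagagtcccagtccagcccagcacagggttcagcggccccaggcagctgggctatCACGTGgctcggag
Gpam, chr19:55127229-55127488, minus strand: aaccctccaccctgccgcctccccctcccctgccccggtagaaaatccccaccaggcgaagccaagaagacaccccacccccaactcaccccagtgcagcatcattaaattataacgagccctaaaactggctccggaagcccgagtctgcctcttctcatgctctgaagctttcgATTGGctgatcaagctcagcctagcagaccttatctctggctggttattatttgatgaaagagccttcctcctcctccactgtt
Plin3, chr17:56290502-56290761, minus strand: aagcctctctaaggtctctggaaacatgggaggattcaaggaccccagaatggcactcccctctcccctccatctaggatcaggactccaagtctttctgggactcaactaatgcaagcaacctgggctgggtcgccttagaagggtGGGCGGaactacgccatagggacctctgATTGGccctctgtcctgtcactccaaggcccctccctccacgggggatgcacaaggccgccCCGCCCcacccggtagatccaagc
Plin5, chr17:56117539-56117798, minus strand: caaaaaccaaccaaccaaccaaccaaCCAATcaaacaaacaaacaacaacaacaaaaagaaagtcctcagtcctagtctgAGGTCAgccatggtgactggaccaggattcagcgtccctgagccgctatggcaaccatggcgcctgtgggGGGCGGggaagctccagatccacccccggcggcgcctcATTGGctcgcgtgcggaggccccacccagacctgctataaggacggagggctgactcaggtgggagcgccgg
The E-box of Plin2 lay across the annotated start, from position -4 to 1 with the first transcribed base as 0. It was the only E-box among the 11 promoter windows that RefSeq's table held for 8 of the 10 genes, each of 250 bases before to 50 after a start, and 7.15% of the 32851 windows of all genes held it. The motif AGGTCA was found in 4 of the 11 windows (16.3% of all windows), CCAAT in 5 (37.4%) and GGGCGG in 7 (35.7%). A sterol element searched as TCACNCCAC was found in 0 of the 11 windows and in 1.24% of all windows. These matches describe the letters of the windows and no binding was measured.

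Plin2 is the perilipin that coats most droplets in liver cells and is found chiefly on them. Its gene lies on chromosome 4 from 86648386 to 86670060 on the minus strand (GENCODE M21, mm10). Plin2 gave 28, 17 and 31 reads in HSKO replicates 1 to 3, against 160, 127 and 160 reads in WT replicates 1 to 3. Its level was 40.9, 24.7 and 41.2 in HSKO livers and 122, 83.6 and 90.2 in WT livers. All 3 HSKO samples lay below the lowest WT sample. The mean was 35.6 ± 9.44 in HSKO and 98.6 ± 20.6 in WT (SD, n = 3), which is 2.77 times lower in HSKO. The log2 fold change was -1.46 (SE 0.27, 95% interval -2.03 to -0.90, limma adjusted p = 0.000802). Plin2 was the only one of the 4 genes tested by limma to be called, against 11.6% of the 2750 tested rows called lower, 28.5% called higher and 40.1% called in either direction. EdgeR and DESeq2 likewise called Plin2 alone of the 4, where edgeR called 21.9% of rows lower and 24.9% higher and DESeq2 called 11.8% lower and 21.2% higher. By each of the 3 tools the fold changes of all 4 genes were negative, so 0 could be called higher. Of the 2750 tested rows, 1311 were negative by limma, 1485 by edgeR and 1424 by DESeq2.

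**Figure D1:**
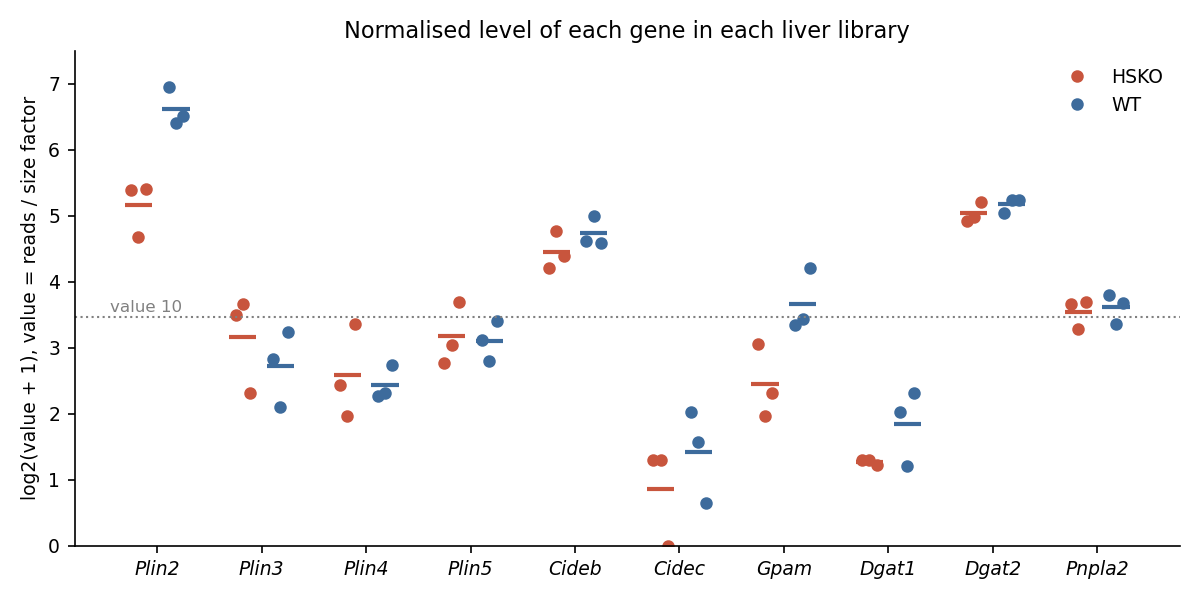
Level of each of the 10 genes in each library, as log2(value + 1), where the value is reads divided by the library's size factor. Points are libraries (HSKO left, red, and WT right, blue, n = 3 each), bars are means of the log2 values, and the dotted line marks a value of 10, the mean that a row needed to be tested. Plin2 and Gpam are the genes whose HSKO and WT points do not overlap.

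Markers of hepatocytes were lower in HSKO livers along with Plin2, and their part in its value was examined by scaling and by read ratios. In bulk liver, fewer cells of a type and less RNA per cell cannot be told apart. The 16 hepatocyte markers, such as Alb, Ttr and Hnf4a, were all measured and took 0.994% to 1.64% of reads in HSKO libraries and 2.21% to 3.74% in WT libraries, and 7 of the 16 were called lower and 0 higher (median log2 fold change -0.59). Without HSKO replicate 1, or without HSKO replicate 2, 0 of the 16 were called lower. The libraries held 631020 to 702013 reads in HSKO and 838637 to 933319 in WT, of which the single row BC071253 took 46.2% to 57.8% in HSKO and 43.1% to 52.9% in WT. Abca1 gave 2, 1 and 2 reads in HSKO and 20, 36 and 34 in WT, so all 6 libraries matched their labels.

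Plin2 was called lower under each scaling that was run. Its log2 fold change was -1.76 with upper quartile scaling, -1.79 with quantile normalization, -2.12 when libraries were scaled to total reads and -0.90 when they were scaled to the 16 hepatocyte markers (adjusted p = 0.000287, 0.000517, 6.32e-05 and 0.0349 from limma). The median log2 fold change of all tested rows was 0.07 as deposited, and the 4 scalings moved it by -0.28, -0.09, -0.64 and 0.54 in the same order. Relative to that median, Plin2 stood at -1.53 with the deposited scaling and between -1.77 and -1.51 with the other 4. All of these but quantile normalization divide each library by a single factor, which moves every row nearly alike. They therefore could not test this distance, which was -1.77 with quantile normalization. The background moved with the scaling as well. Upper quartile scaling called 25.6% of rows lower and 21.1% higher, and quantile normalization 18.3% lower and 21.7% higher. Total reads called 38% lower and 8.04% higher, and hepatocyte markers 0.8% lower and 39.4% higher.

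Read ratios within a library do not depend on its scaling, and 2 of them were computed for Plin2. Against hepatocyte markers, Plin2 gave 4.46, 2.35 and 2.93 reads per 1000 marker reads in HSKO libraries and 8.13, 4.99 and 5.10 in WT libraries. The groups did not overlap, although HSKO replicate 1 came close to WT replicates 2 and 3. The mean was 3.25 ± 1.09 in HSKO and 6.07 ± 1.78 in WT (SD, n = 3), and leaving Alb out of the markers gave 4.92 ± 1.42 in HSKO and 9.77 ± 1.52 in WT. The two-sided exact permutation p was 0.1 with and without Alb, the smallest that 3 against 3 can give. Among the reads of Plin2, Plin3, Plin4 and Plin5 together, Plin2 made up 66.7%, 53.1% and 62.0% in HSKO libraries and 87.4%, 86.4% and 79.2% in WT libraries. Every HSKO share lay below every WT share, at a mean of 60.6% ± 6.88 in HSKO and 84.3% ± 4.48 in WT (SD, n = 3, two-sided exact permutation p = 0.1, 0.2 adjusted over the 4 read ratios tested). Exact 95% intervals of the shares, which cover counting error only, reached up to 80.4% in HSKO replicate 1 and down to 73.0% in WT replicate 3.

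**Figure D2:**
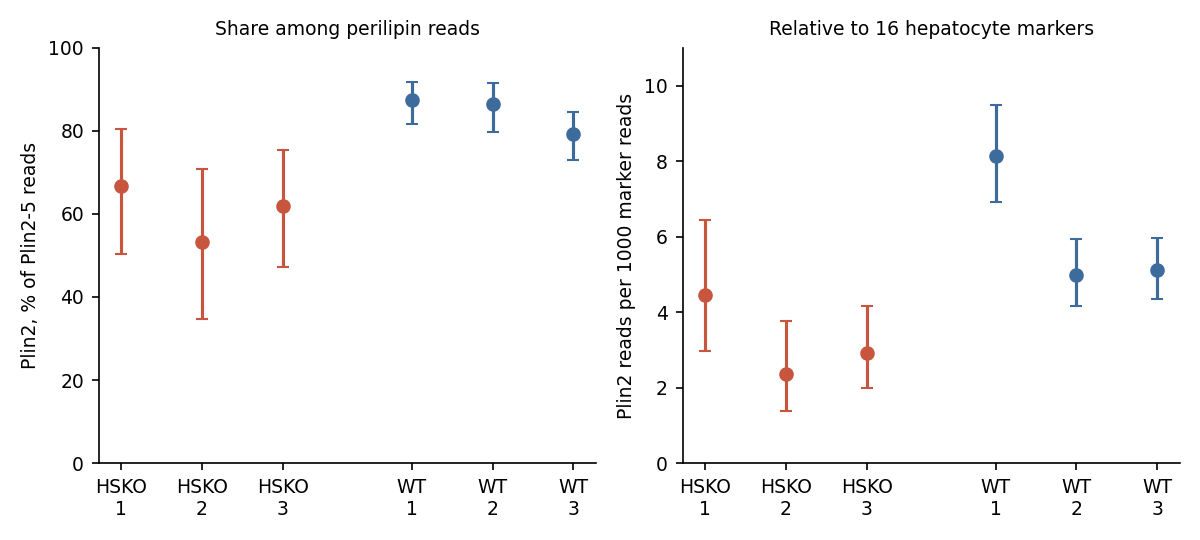
Left, Plin2 reads as a percentage of the reads of Plin2, Plin3, Plin4 and Plin5 in each library; right, Plin2 reads per 1000 reads of the 16 hepatocyte markers. Points are libraries (HSKO red, WT blue) and bars are exact 95% intervals for counting error; all HSKO points lie below all WT points in both panels.

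No difference was detected for Plin3, Plin4 and Plin5, which were read at far lower levels than Plin2. Plin3 is an exchangeable perilipin that moves between cytosol and nascent droplets, Plin4 is most abundant in adipose tissue, and Plin5 belongs to oxidative tissues, where it links droplets to mitochondria. Plin3 gave 7, 8 and 3 reads in HSKO and 8, 5 and 15 in WT, a level of 8.62 ± 4.07 in HSKO and 5.95 ± 2.59 in WT (SD, n = 3). Plin4 gave 3, 2 and 7 reads in HSKO and 5, 6 and 10 in WT, a level of 5.53 ± 3.35 in HSKO and 4.47 ± 1.02 in WT. Plin5 gave 4, 5 and 9 reads in HSKO and 10, 9 and 17 in WT, a level of 8.36 ± 3.20 in HSKO and 7.71 ± 1.83 in WT. The groups overlapped for all 3, and each mean was under the 10 that limma's test required. Without that filter, their log2 fold changes were 0.43, 0.15 and 0.07 in the order Plin3, Plin4, Plin5, with 95% intervals of -0.52 to 1.38, -0.88 to 1.18 and -0.78 to 0.92. At such low levels log2(value + 1) understates changes, and a 2-fold rise was not excluded for any of the 3. A 2-fold fall was not excluded for Plin4 either. Summed over the 3 genes, the level was 22.5 ± 2.48 in HSKO and 18.1 ± 5.29 in WT. The direction of all 3 turned with scaling to total reads, to -0.16, -0.40 and -0.53.

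Cideb and Cidec, on chromosomes 14 and 6, were far apart in level. Cideb, the liver's main Cide gene, gave 12, 18 and 15 reads in HSKO and 31, 47 and 41 in WT. Its level was 21.2 ± 4.46 in HSKO and 25.9 ± 4.36 in WT (SD, n = 3), with overlapping groups and a log2 fold change of -0.28 (95% interval -0.87 to 0.31, limma adjusted p = 0.431). With scaling to hepatocyte markers its log2 fold change was 0.26, and with total reads it was -0.93 and passed the test (limma adjusted p = 0.0185). Cideb shares exon sequence with the gene Nop9 on the other strand, and 70.2% of the 50-base stretches of its transcripts also occur, as reverse complement, in those of Nop9. The Nop9 row was at 4443 ± 539 in HSKO and 2151 ± 424 in WT and was called higher (SD, n = 3, log2 fold change 1.06, limma adjusted p = 0.00259). Whether counting used strand is not stated in the sources at hand, and the part of Nop9 in the Cideb value was not tested. Cidec, which fuses droplets and marks fat-laden liver and adipose tissue, gave 1, 1 and 0 reads in HSKO and 4, 3 and 1 in WT. Its ratio of HSKO to WT reads after division by the size factors was 0.542 (exact 95% interval 0.0561 to 2.72, for counting error alone). No difference was detected from so few reads, and a large one was not excluded. Cideb made up 95.7% ± 3.93 of the reads of both Cide genes in HSKO and 93.4% ± 4.55 in WT (SD, n = 3, two-sided exact permutation p = 0.5, also 0.5 adjusted over the 4 ratios).

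Gpam encodes the mitochondrial glycerol-3-phosphate acyltransferase, which commits acyl-CoA to glycerolipids, and lies on chromosome 19 from 55067268 to 55127238. Gpam gave 5, 2 and 3 reads in HSKO and 12, 15 and 31 in WT. Its level was 7.31, 2.91 and 3.99 in HSKO livers and 9.16, 9.87 and 17.5 in WT livers. Every HSKO sample lay below every WT sample, with HSKO replicate 1 nearest to WT. The mean was 4.74 ± 2.29 in HSKO and 12.2 ± 4.62 in WT (SD, n = 3), under the filter when averaged over all 6 libraries. Without the filter, limma gave a log2 fold change of -1.22 (SE 0.43, 95% interval -2.11 to -0.33) and did not call it (adjusted p = 0.102, with 1.53% of rows called lower and 4.52% higher). EdgeR on recovered reads without the filter gave -1.49 and called it (adjusted p = 0.0414, with 2.93% of rows called lower and 4.78% higher), and DESeq2 without the filter gave -1.38 and did not (adjusted p = 0.169, with 1.12% called lower). The corrected ratio of HSKO to WT reads was 0.374, with an exact 95% interval from 0.170 to 0.737 for counting error alone. Without the filter, limma called Gpam with upper quartile scaling (adjusted p = 0.0302, where 5.08% of rows were lower) and with total reads (0.0112, where 10.4% were). It did not call Gpam with quantile normalization (log2 fold change -1.16, adjusted p = 0.211, where 1.03% were lower) or with hepatocyte markers (-0.71, adjusted p = 0.548, where 0.159% were).

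Dgat1 and Dgat2 catalyse the same last step of triglyceride synthesis but are unrelated in sequence, and Dgat2 was the one read in quantity. Dgat2 gave 20, 21 and 27 reads in HSKO and 42, 56 and 65 in WT, which the size factors bring to 29.2, 30.5 and 35.9 in HSKO livers and 32.1, 36.9 and 36.7 in WT livers. The groups overlapped, and the mean was 31.9 ± 3.54 in HSKO and 35.2 ± 2.72 in WT (SD, n = 3). Its log2 fold change was -0.14, and the 95% interval from -0.68 to 0.40 leaves out a change as large as that of Plin2 (limma adjusted p = 0.681). Scaled to hepatocyte markers it was 0.41 and not called, and scaled to total reads -0.80 and called (adjusted p = 0.310 and 0.0307). Dgat1 gave 1, 1 and 1 reads in HSKO and 4, 2 and 7 in WT, too few to compare, with a corrected ratio of HSKO to WT reads of 0.50 (exact 95% interval 0.0914 to 1.82 for counting error alone). Dgat2 made up 95.7% ± 0.634 of Dgat reads in HSKO and 92.7% ± 3.37 in WT (SD, n = 3, two-sided exact permutation p = 0.4, 0.5 adjusted over the 4 ratios).

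Pnpla2, on chromosome 7 from 141455198 to 141460743, hydrolyses the first fatty acid from stored triglyceride. It gave 8, 6 and 9 reads in HSKO and 17, 14 and 21 in WT, a level of 11.7, 8.72 and 11.97 in HSKO livers and 12.97, 9.21 and 11.8 in WT livers. The groups overlapped almost entirely. The log2 fold change was -0.07 (95% interval -0.84 to 0.71, limma adjusted p = 0.899), and its sign changed to 0.46 with scaling to hepatocyte markers.

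**Figure D3:**
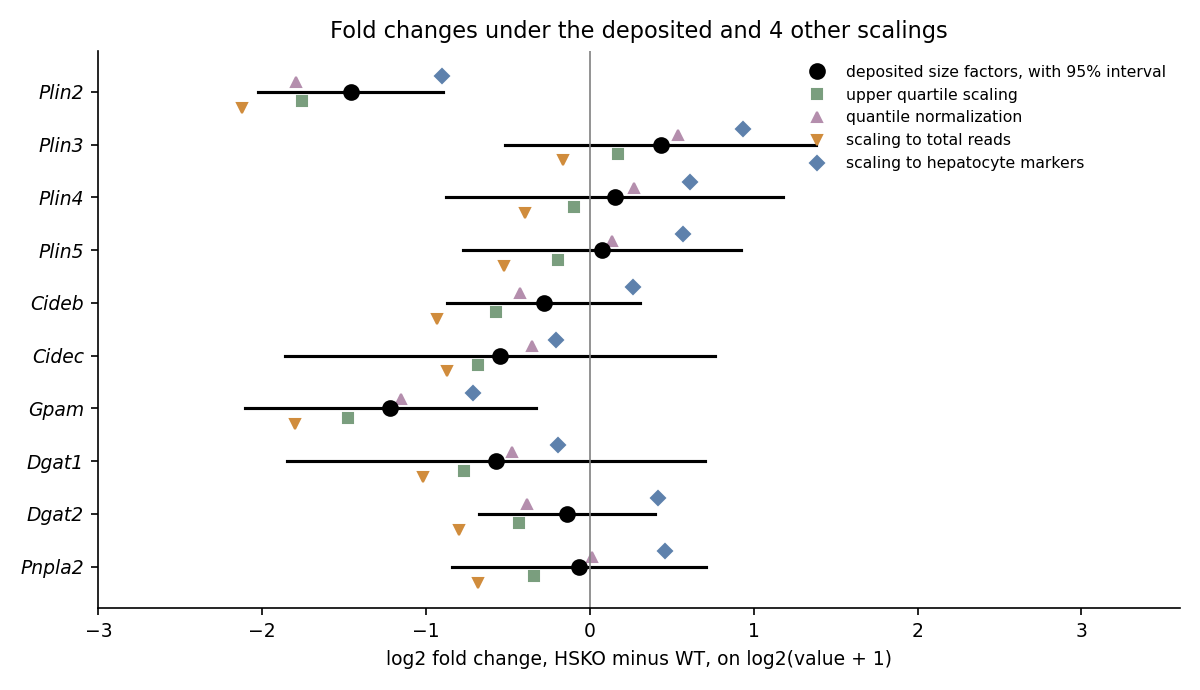
Log2 fold change, HSKO minus WT on log2(value + 1), of each of the 10 genes with the deposited size factors (black, with 95% interval) and with 4 other scalings (coloured symbols); genes with a mean under 10 were fitted without the filter. The scalings shift all genes sideways, and Plin2 stays below 0 with every one, from -2.12 to -0.90.

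Per kilobase of annotated exon, Plin2, Cideb and Dgat2 led in both groups, and the distance of Plin2 from the others differed. In HSKO livers the levels per kilobase were 18.9 for Plin2, 17.5 for Cideb and 14.1 for Dgat2, and single HSKO libraries ranged from 13.1 to 21.8 for Plin2, from 14.5 to 21.6 for Cideb and from 12.9 to 15.9 for Dgat2. In WT livers Plin2 stood first at 52.2 per kilobase, with libraries from 44.3 to 64.7, and Cideb followed at 21.4, with libraries from 19.1 to 25.5. Plin2 thus did not overlap Cideb in WT and did in HSKO. Dgat2 came next in WT livers at 15.6, with libraries from 14.2 to 16.3. Pnpla2 and Plin5 followed in both groups, at 4.11 and 4.01 per kilobase in HSKO and 4.32 and 3.70 in WT, and their libraries overlapped. The other 5 genes averaged between 0.554 and 2.36 per kilobase in HSKO and between 0.773 and 1.92 in WT.

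The wider pathway was read from 41 other genes, of which 40 had a row, 7 had 0 reads in all 6 libraries, 16 were below the filter and 17 were tested. Among 7 tested genes of triglyceride synthesis, 2 were lower, 1 higher and 4 neither, beside 11.6% of all tested rows lower and 28.5% higher (median log2 fold change -0.51, against 0.07 over all tested rows). By edgeR, with upper quartile scaling, with quantile normalization and with total reads 4 of the 7 were lower, and with hepatocyte markers 0 were, while the share of all rows lower in the same order was 21.9%, 25.6%, 18.3%, 38% and 0.8%. Acsl1 and Acsl5, which activate fatty acids to acyl-CoA, were lower. Acsl1 was at 72.0 ± 11.9 in HSKO and 168 ± 37.5 in WT (SD, n = 3, log2 fold change -1.20, limma adjusted p = 0.00126), and Acsl5 at 20.5 ± 7.42 in HSKO and 47.3 ± 12.7 in WT (log2 fold change -1.19, limma adjusted p = 0.00516). Lpin1, the phosphatidate phosphatase that makes diacylglycerol and also acts as a transcriptional coactivator, was higher. It gave 36, 42 and 48 reads in HSKO and 21, 45 and 47 in WT, a level of 59.2 ± 5.84 in HSKO and 24.0 ± 7.12 in WT, and the levels did not overlap (log2 fold change 1.30, SE 0.28, limma adjusted p = 0.00152). Scaled to hepatocyte markers, Acsl1 and Acsl5 were not called (limma adjusted p = 0.11 and 0.139), and scaled to total reads Lpin1 was not (0.0935).

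Among 6 tested genes of lipolysis, limma called 3 lower and 0 higher, beside 11.6% of all tested rows lower and 28.5% higher (median log2 fold change -0.96, against 0.07 over all tested rows). The fold changes of all 6 were negative as deposited and with each of the 4 other scalings. Over all 2750 tested rows, 1311 were negative as deposited. The number was 1550 with upper quartile scaling, 1388 with quantile normalization, 1814 with total reads and 627 with hepatocyte markers. The 3 that limma did not call were G0s2, Mgll and Pnpla8. The list mixes lipases with regulators of them such as G0s2, so its counts give no direction for lipolysis itself. The number lower was 6 by edgeR, with upper quartile scaling and with total reads, where 21.9%, 25.6% and 38% of all rows were lower. It was 5 with quantile normalization and 1 with hepatocyte markers, where 18.3% and 0.8% of all rows were. By edgeR and DESeq2 all 6 fold changes were negative too, beside 1485 and 1424 of the 2750 rows. Thus 0 of the 6 could be called higher at any threshold. Ces1d and Ces1f are carboxylesterases of the endoplasmic reticulum that hydrolyse triglyceride, and Lipa is the lysosomal acid lipase. Ces1d was at 15.9 ± 4.93 in HSKO and 59.7 ± 19.7 in WT (SD, n = 3), Ces1f at 37.5 ± 8.66 in HSKO and 74.4 ± 18.4 in WT, and Lipa at 5.66 ± 0.296 in HSKO and 15.0 ± 5.10 in WT. The limma adjusted p was 0.000652, 0.00978 and 0.0306 in that order. Lipa passed the filter only through its WT level, so its place among the tested genes already required WT to be the higher group, and without the filter it was not called (limma adjusted p = 0.0654). Ces1d kept its call with scaling to hepatocyte markers (limma adjusted p = 0.00364), while Ces1f and Lipa did not (0.350 and 0.254). Ces1f lost its call without HSKO replicate 2 or WT replicate 2 (adjusted p = 0.0644 and 0.0626 from limma), and Lipa without WT replicate 2 or WT replicate 3 (0.175 and 0.154). Without WT replicate 2, 1 lipolysis gene was lower.

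Among 4 tested genes of droplet assembly and coat, limma with the deposited scaling and DESeq2 called 0 in either direction. Over all tested rows, limma called 11.6% lower and 28.5% higher, and DESeq2 11.8% lower and 21.2% higher. The median log2 fold change of the 4 was -0.20 by limma, against 0.07 over all tested rows. Hsd17b11 had a log2 fold change of -0.72 and Aup1 one of 0.71, and limma called neither (limma adjusted p = 0.0914 and 0.0658). EdgeR called 2 of the 4 lower, Hsd17b11 and Hsd17b13, dehydrogenases of the droplet surface (adjusted p = 0.0305 and 0.0442), beside 21.9% of all rows lower and 24.9% higher. Upper quartile scaling and total reads each called 2 of the 4 lower and quantile normalization 1, where 25.6%, 38% and 18.3% of all rows were lower. Scaled to hepatocyte markers, 0 were lower and 1 was higher, where 39.4% of all rows were higher. With array weights limma called 1 of the 4 lower and 1 higher, beside 490 and 855 of the 2750 tested rows. Without WT replicate 1 it called 1 higher, beside 822 of those rows. Plin1 and Cidea, which coat and fuse the droplets of adipocytes, had 0 reads in all 6 libraries, as did the adipocyte hormones Adipoq, Lep and Retn. Those 5 of the 7 adipocyte markers were thus at 0 in both groups, and the list's summed level, nearly all of it Car3, which hepatocytes also express, ranged from 95.7 to 160 in HSKO and from 163 to 317 in WT. Endothelial markers summed to 13.1 to 30.7 in HSKO and 32.9 to 37.8 in WT. Stellate cell and fibroblast markers summed to 10.2 to 21.8 in HSKO and 31.3 to 36.2 in WT. In HSKO libraries these sums rest on only 9 to 21 endothelial reads and 7 to 15 stellate cell and fibroblast reads. Dcn, at 7.07 in HSKO and 19.5 in WT, was the largest part of the latter sum. Lyve1 and Acta2 had the higher mean in HSKO, and the other genes of both lists the lower. Kupffer cell markers, at 39.5 to 65.2 in HSKO and 46.6 to 93.4 in WT, overlapped. The part of any of these cells in the values of Plin2 and Gpam was not tested.

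**Figure D4:**
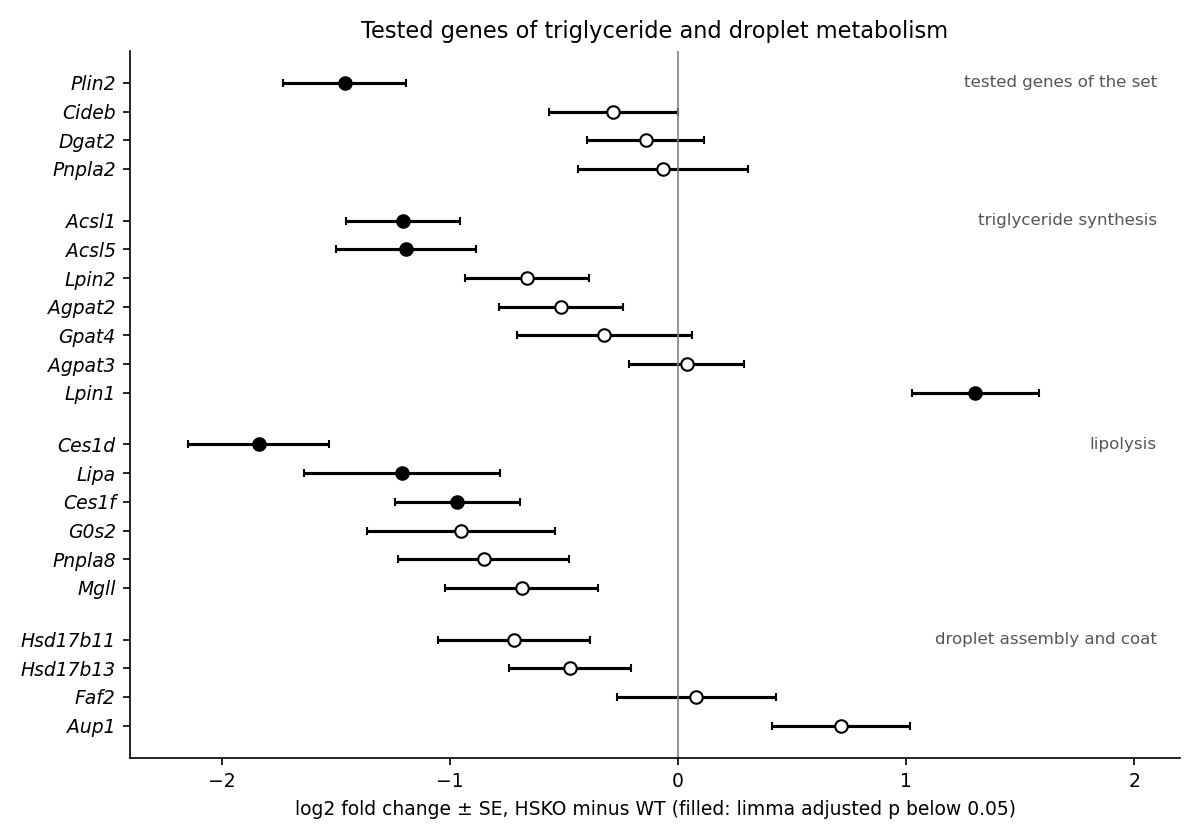
Log2 fold change ± SE, HSKO minus WT on log2(value + 1), of the 4 tested genes of the set and the 17 tested genes of the wider pathway, grouped by role; filled points have a limma adjusted p below 0.05. Most points lie below 0, and Lpin1 is the filled point above 0.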

How the data were processed

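RNA of 6 liver samples was compared, 3 HSKO and 3 WT. The authors deposited 1 table of signal per gene and library, which by the table's own name and its values is read numbers divided by the size factor of each library. Per the submitters' processing notes, DESeq 1.16.0, RSEM 1.2.9, Bowtie and FastQC 0.11.3 were used with mm10, in no stated order or role. The sources used here do not state the annotation, the filters or whether counting used strand. Dividing each value by that of 1 read gave whole reads for 100% of values within 0.001, and these reads gave the depth.

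Values were tested as log2(value + 1) with limma (3.58.1, R 4.3.3), with a mean-variance trend, in the 2750 rows averaging 10 or more, two-sided, with Benjamini-Hochberg adjustment over all of them at 0.05. Of the 10 genes 4 passed that filter, and the other 6 were fitted without it over 13807 rows. EdgeR 4.0.16 (quasi-likelihood, TMM) and DESeq2 1.42.0 were run on the recovered reads. All 10 genes are named, and of the wider pathway those that limma called with the deposited scaling; any other pathway gene named was chosen after its values were seen. The genes and lists were chosen with earlier results of these data known. Alternatives were pseudocounts of 0.5 and 10, no filter, a mean of 50, 4 scalings, no trend, array weights, a replicate block and each library left out. Intervals for reads cover counting error only.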

Additional observations from a re-analysis of the deposited data

How the results depend on the processing

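The call of Plin2 held in every setting run, with log2 fold changes from -2.12 (total reads) to -0.90 (hepatocyte markers) and from -1.58 to -1.22 when each library was left out. The number of the tested genes of the set called lower was 1 in each setting but total reads, where it was 3. Total reads called 38% of all tested rows lower, against 11.6% as deposited. The set had 4 tested genes in most settings, 10 without the filter and 1, Plin2 itself, at a mean of 50. Sample numbers did not pair the libraries (correlations of deviations -0.0261, -0.0275 and -0.0209), and with the replicate number as a block Plin2 stayed at -1.46 (limma adjusted p = 0.00251), with 269 rows lower and 751 higher.

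Over the 2750 tested rows, 320 were lower and 783 higher. The setting without the filter tested 13807 rows and the one at a mean of 50 tested 688. Their counts therefore do not compare directly with the rest. Lower rows numbered 703 with upper quartile scaling, 503 with quantile normalization, 1044 with total reads, 22 with hepatocyte markers, 490 with array weights, 601 with edgeR, 211 without the filter, 118 at a mean of 50, and 157 to 313 with a library left out (157 without WT replicate 3 and 159 without WT replicate 2). Higher rows numbered 221 with total reads, 391 at a mean of 50, and 581 to 822 with a library left out. Higher rows numbered 580 by upper quartile, 596 by quantile, 684 by edgeR and 1084 by hepatocyte marker scaling.

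Signs turned for genes near 0 and none of these reversed values passed the test: Plin3 (-0.16 with total reads), Plin4 (-0.10 with upper quartile scaling, -0.40 with total reads, -0.24 to 0.46 with a library left out), Plin5 (-0.20, -0.53, and -0.19 to 0.27), Cideb (0.26 with hepatocyte markers), Dgat2 (0.41 with hepatocyte markers) and Pnpla2 (0.0154 with quantile normalization, 0.46 with hepatocyte markers, 0.0397 with array weights, -0.20 to 0.0681 with a library left out). The difference in the Cideb share ranged from -0.13 to 4.40 percentage points with a library left out. The cause was not tested. Depth limits the genes under a mean of 10, which had 2 to 18 reads in all HSKO libraries together.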

Other observations

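Of the 16 genes of the wider pathway below the filter and above 0, 3 had HSKO and WT values that did not overlap (18.8%, against 21.8% of all rows above 0), and they were picked out after their values were seen. Ldah, a droplet-associated hydrolase listed under an older symbol, gave 2, 1 and 1 reads in HSKO libraries and 9, 9 and 14 in WT libraries, a corrected read ratio of HSKO to WT of 0.271 with an exact 95% interval from 0.0696 to 0.764 for counting error alone. Without the filter it was not called by limma or edgeR (adjusted p = 0.102 and 0.0680). Abhd5, the coactivator of the lipase Pnpla2, gave 2, 2 and 2 reads in HSKO and 10, 7 and 8 in WT, with a ratio of 0.520 and an interval from 0.175 to 1.30 that includes no change. Agpat1, an acyltransferase of the second step of glycerolipid synthesis, was the one with higher HSKO values, at 3, 2 and 2 reads in HSKO and 1, 3 and 2 in WT, with a ratio of 2.53 and an interval from 0.728 to 9.11.

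Acsl4, also picked out after its values were seen and an acyl-CoA synthetase with a preference for arachidonic acid, had 0, 5 and 1 reads in HSKO libraries and 5, 16 and 20 in WT libraries. It was not called without the filter (limma adjusted p = 0.117, edgeR adjusted p = 0.0600). Its level was 7.27 in HSKO replicate 2 and 3.82 in WT replicate 1, so the groups overlapped.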
